A study of Mus musculus with 8 samples.

Results

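Cycling synovial fibroblasts were the cells of the 5 fibroblast classes of the deposited annotation (Lining, Mmp3+, Il6+, Cd200+ and Pi16+) in which at least 1 unique molecular identifier (UMI, 1 counted transcript) of Mki67 and at least 1 of Top2a were read. Mki67 encodes the proliferation antigen Ki-67 that coats mitotic chromosomes, and Top2a the topoisomerase that untangles replicated DNA. The rule found 172 cells among 21731 annotated fibroblasts (0.791%), and the deposited annotation held 24227 cells in all. The members were chosen by these measured UMI counts, so the levels of both genes, and of genes that move with them, are a description.

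The study profiled synovial cells of ankle and wrist joints from 17 mice, 8 to 10 weeks old, in 4 droplet libraries of transcript 3' ends, each animal marked by a hashtag antibody. Arthritic animals were hTNFtg197 mice, which carry a human TNF transgene (strain B6-Tg(TNF)197Gkl), and all of them received Il23mc for 9 days. The untreated library held 3 of these, the TNF-inhibited library 3 that also received anti-hTNF, and the IL-17-inhibited library 3 that also received anti-mIL-17a, and each of these 3 libraries held 1 untreated wild-type animal, called healthy. Cells of these 3 libraries were sorted as viable and CD45-negative (labelled CD45- GR-1), with no selection for FAP. The FAP-sorted library held 5 arthritic animals without an inhibitor, whose cells were sorted as negative for CD45 and positive for FAP and Pdpn, so that sort and library, like treatment and library, cannot be told apart.

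A dividing cell copies its DNA in S phase with helicases and polymerases, packs it with newly made histones, and then turns to the kinases, spindle motors and ubiquitin ligases of G2 phase and mitosis. Transcripts of the G2 and mitosis genes peak late in the cycle, and many of their promoters carry a CCAAT box and a short element named CHR, while many S phase genes carry an E2F element. Synovial fibroblasts line the joint (Lining cells make lubricin) or lie beneath the surface, and in inflamed joints they release matrix-degrading enzymes, acute phase proteins and chemokines.

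Fibroblast depth was 4508588 to 36786390 UMIs per animal. In the 3 healthy animals the animal's own hashtag was the highest in only 35.4%, 22.9% and 10.2% of their annotated fibroblasts, against 96.2% or more in each of the 14 arthritic animals, so the assignment of healthy cells rests on weaker ground. The own hashtag was the highest in 171 of the 172 cycling cells. A total of 60 barcode sequences occurred in more than 1 library, 2 of them those of cycling cells. The labels describe the animals as individuals, and the p-values over animals measure the spread between them.

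The promoters of the 2 selecting genes and of 4 genes of the division programme are shown because the genes described next share short elements in them. They are the 250 bases before the RefSeq gene start on GRCm38.p6, 5' to 3' on the gene's strand. Capitals mark matches, on either strand, to the CHR element TTTGAA, to CCAAT, or to the E2F elements TTTCGCGC and TTTGGCGC, and matches can overlap. Mki67 lies on chromosome 7 (chr7:135716380-135716629, minus strand), Top2a on chromosome 11 (chr11:99024190-99024439, minus strand) and Ube2c, a ubiquitin-conjugating enzyme of the mitotic exit machinery, on chromosome 2 (chr2:164769679-164769928, plus strand). Cdk1, the kinase that drives entry into mitosis, lies on chromosome 10 (chr10:69352913-69353162, minus strand). Mcm5 (chr8:75109259-75109508, plus strand) and Mcm6 (chr1:128359706-128359955, minus strand) are subunits of the replicative helicase.
Mki67: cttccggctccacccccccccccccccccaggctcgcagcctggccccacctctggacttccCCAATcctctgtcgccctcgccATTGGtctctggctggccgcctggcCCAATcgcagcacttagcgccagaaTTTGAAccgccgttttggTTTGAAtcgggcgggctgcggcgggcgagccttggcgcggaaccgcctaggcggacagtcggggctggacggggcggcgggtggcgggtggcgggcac
Top2a: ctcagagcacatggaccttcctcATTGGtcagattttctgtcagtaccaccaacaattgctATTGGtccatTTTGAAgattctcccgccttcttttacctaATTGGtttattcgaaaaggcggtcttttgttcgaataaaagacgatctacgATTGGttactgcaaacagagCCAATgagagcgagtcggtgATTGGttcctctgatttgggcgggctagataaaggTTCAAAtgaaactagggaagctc
Ube2c: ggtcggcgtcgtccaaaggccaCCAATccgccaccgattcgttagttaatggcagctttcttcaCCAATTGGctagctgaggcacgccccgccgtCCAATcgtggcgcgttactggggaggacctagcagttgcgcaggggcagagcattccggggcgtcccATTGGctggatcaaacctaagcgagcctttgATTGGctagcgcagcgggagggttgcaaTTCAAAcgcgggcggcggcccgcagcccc
Cdk1: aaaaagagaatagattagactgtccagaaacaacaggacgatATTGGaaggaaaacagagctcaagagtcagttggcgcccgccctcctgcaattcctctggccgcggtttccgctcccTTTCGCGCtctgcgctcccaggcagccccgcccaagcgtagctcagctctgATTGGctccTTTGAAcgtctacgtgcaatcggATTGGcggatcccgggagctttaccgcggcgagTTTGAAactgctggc
Mcm5: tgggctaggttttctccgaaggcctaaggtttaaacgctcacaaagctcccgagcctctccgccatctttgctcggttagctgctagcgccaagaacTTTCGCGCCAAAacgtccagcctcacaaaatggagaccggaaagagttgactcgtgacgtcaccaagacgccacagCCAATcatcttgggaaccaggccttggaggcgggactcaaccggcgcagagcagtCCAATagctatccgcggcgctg
Mcm6: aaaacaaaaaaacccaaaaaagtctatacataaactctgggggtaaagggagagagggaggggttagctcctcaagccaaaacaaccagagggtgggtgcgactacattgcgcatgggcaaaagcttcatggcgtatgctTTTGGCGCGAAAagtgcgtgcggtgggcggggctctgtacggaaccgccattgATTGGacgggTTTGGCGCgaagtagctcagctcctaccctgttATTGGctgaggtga
Mki67 and Top2a each held 2 CHR matches, with 3 and 6 CCAAT matches, and no E2F match of these letters. Mcm5 and Mcm6 held 2 and 3 E2F matches and no CHR match. These 4 division genes were picked for their matches, Ube2c and Cdk1 for CHR and CCAAT and Mcm5 and Mcm6 for E2F. Their own matches were therefore set by the choice, and they are not typical examples. Over the whole RefSeq windows of 300 bases, TTTGAA occurred in 39 of 57 windows (68.4%) of the G2 and mitosis genes that were higher in cycling cells, in 5 of 40 windows (12.5%) of the S phase genes that were higher, and in 17.9% of all 32851 windows. CCAAT occurred in 75.4%, 57.5% and 37.4% of the same sets, and the E2F letters in 3.51%, 30.0% and 0.813%. RefSeq windows were given for 54 of the 70 G2 and mitosis genes and 32 of the 38 S phase genes. The matches describe letters in these windows and are not bound sites.

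Members held a median of 7 Mki67 UMIs (1 to 114) and of 9 Top2a UMIs (1 to 69). Mki67 was read in 441 fibroblasts and Top2a in 912. Of the cells with Mki67, 39.0% also held Top2a.

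The deposited cell-cycle scores are given as a description, since the rule chose cells by 2 genes whose transcripts peak in G2 phase and mitosis and nothing is read from a leading G2M score. The G2M score was the higher one and above 0 in 131 members, the S score in 39, and neither score was above 0 in 2. Median scores were 0.444 (G2M) and 0.187 (S) in members against -0.025 and -0.005 in the 20550 fibroblasts with neither gene. In the 5 animals with at least 10 members, the G2M score led in 13 of 16 cells of untreated 3, in 23 of 27 of IL-17-inhibited 1, in 7 of 11 of FAP-sorted 1, in 16 of 24 of FAP-sorted 3 and in 50 of 62 of FAP-sorted 4. The G2M score thus led in 63.6% and 66.7% of members of FAP-sorted 1 and 3 and in 80.6% to 85.2% of those of the other 3 animals, a difference that was not tested.

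**Figure D1:**
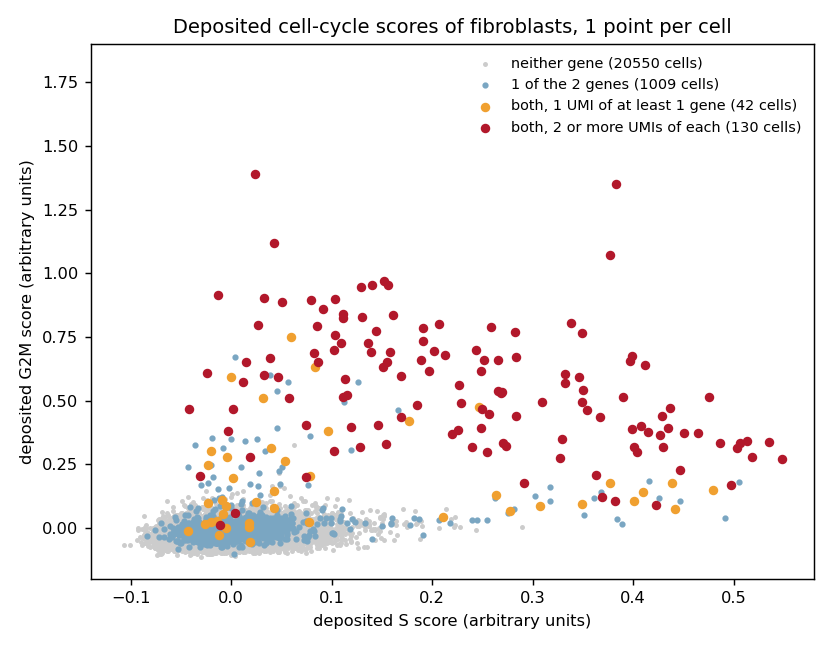
Deposited S score (x axis, arbitrary units) and G2M score (y axis, arbitrary units) of every annotated fibroblast, 1 point per cell, coloured by the UMIs of Mki67 and Top2a. The 130 members with 2 or more UMIs of each gene form an arc from high S to high G2M scores, and the members with 1 UMI of at least 1 gene lie partly within the cloud of cells with neither.

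Cells near the edge of the rule differed from its core. The summed level of the G2 and mitosis list was a median of 120.6 UMIs per 10000 in the 130 members with at least 2 UMIs of each gene, 44.6 in the 29 with 1 UMI of one gene and more of the other, and 18.6 in the 13 with 1 UMI of each. Just outside the rule it was 11.1 in 269 cells with Mki67 only and 10.1 in 613 cells with 1 UMI of Top2a only, close to the 9.48 of cells with neither. Members with 1 UMI of each gene thus lay nearer to cells outside the rule than to the core members.

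Cycling cells were mostly Mmp3+ fibroblasts. This class, named for the matrix metalloproteinase stromelysin-1, gave 141 of the 172 members (82.0%) while it made up 45.0% of fibroblasts. Its cycling share was 1.44% (141 of 9770 cells; exact 95% binomial interval 1.22 to 1.70), against 0.616% of Lining cells (9 of 1462; 0.282 to 1.17), 0.354% of Pi16+ cells (5 of 1414; 0.115 to 0.823), 0.226% of Il6+ cells (16 of 7073; 0.129 to 0.367) and 0.0497% of Cd200+ cells (1 of 2012; 0.00126 to 0.277). These intervals cover counting error only and pool cells of all animals. The 45.0% also pools animals whose class mix differed. In FAP-sorted 4, which gave 62 members, Mmp3+ cells made up 73.6% of fibroblasts and 83.9% of members. Among the annotated classes outside the fibroblasts, the same rule took 23 of 1055 osteoblasts (2.18%) and 8 of 1441 chondrocytes (0.555%).

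Depth moved with the class. Median UMIs per cell were 20678 in Mmp3+ and 20575.5 in Lining cells, against 10554 in Il6+, 10321 in Cd200+ and 9836 in Pi16+ cells. When every cell was thinned to 5000 UMIs and shallower cells were left out, the share was 0.782% in Mmp3+, 0.403% in Pi16+, 0.207% in Lining and 0.146% in Il6+ cells. No thinned Cd200+ cell held both genes, 0 of 1845. Within FAP-sorted 4, the animal with most members, thinned shares were 3.05% in Mmp3+, 2.99% in Il6+ and 3.41% in Pi16+ cells. They were 0% in its 41 thinned Lining and 40 thinned Cd200+ cells.

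**Figure D2:**
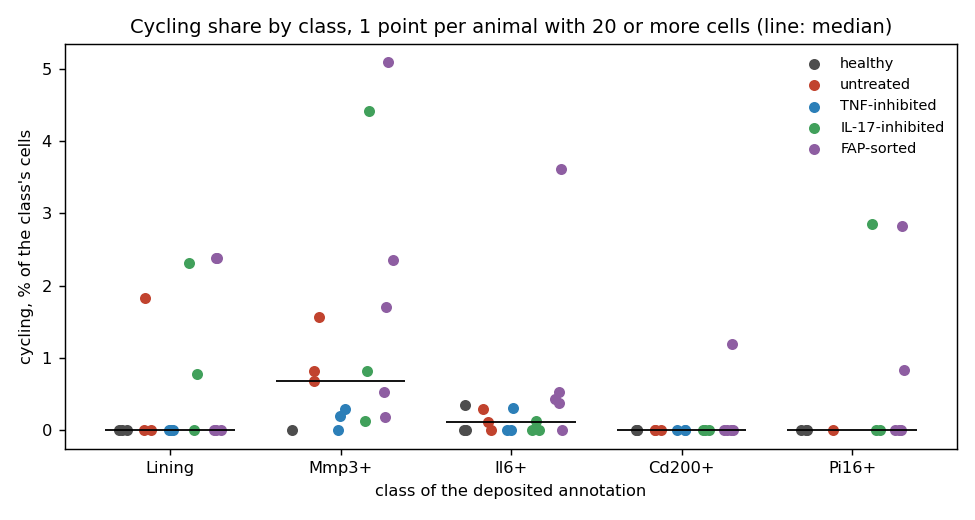
Cycling share of each fibroblast class (y axis, percent of the class's cells, all UMIs), 1 point per animal with at least 20 cells of the class, coloured by condition, with the median over animals as a line. Most animals sit at 0 in Lining, Cd200+ and Pi16+ cells, and the highest points of the Mmp3+ class belong to FAP-sorted 4 and IL-17-inhibited 1.

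Within animals, the thinned share was more often higher in Mmp3+ than in Lining, Cd200+ or Il6+ cells, but no pair of classes passed the adjusted threshold over the 9 arthritic animals of the 3 libraries not sorted for FAP. The mean within-animal difference was -0.43 percentage points for Lining minus Mmp3+ (lower in 6 of 9 animals, higher in 0; exact sign-flip permutation test, two-sided, p = 0.0313, adjusted p = 0.156 over 10 pairs). It was 0.621 points for Mmp3+ minus Cd200+ (higher in 6 of 9; exact permutation p = 0.0313, adjusted p = 0.156) and 0.555 points for Mmp3+ minus Il6+ (higher in 5, lower in 1; exact permutation p = 0.0625, adjusted p = 0.208). For Lining minus Mmp3+ and Mmp3+ minus Cd200+, every animal that differed went the same way, and the other animals were tied. The exact permutation test was thus at the lowest value it can give with these ties. After adjustment beside the other pairs these 2 could not pass, so their not passing decides nothing about the classes. Without IL-17-inhibited 1, Mmp3+ minus Cd200+ and Mmp3+ minus Il6+ were 0.309 and 0.234 points. With cells thinned to 3000 UMIs the 3 differences were -0.071, 0.20 and 0.174 points. With the FAP-sorted animals added, the first 2 differences were -0.596 and 0.720 points and passed, each at an exact permutation adjusted p of 0.0195, and the third did not (adjusted p = 0.0651).

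The IL-17-inhibited and FAP-sorted animals overlapped the untreated ones in their cycling shares, and the TNF-inhibited and healthy animals lay below all 3 untreated ones until cells were thinned to equal depth. Without thinning, the untreated animals held 0.255%, 0.442% and 0.832% cycling fibroblasts (2 of 783, 9 of 2037 and 16 of 1923). The IL-17-inhibited animals held 2.25%, 0.364% and 0.0508% (27 of 1198, 7 of 1922 and 1 of 1967). The TNF-inhibited animals held 0%, 0.113% and 0.238% (0 of 1696, which allows up to 0.177%, then 2 of 1767 and 2 of 842). All 3 TNF-inhibited animals thus lay below every untreated animal, and the IL-17-inhibited animals spanned the whole range of the untreated ones. But untreated 1 and TNF-inhibited 3 held 2 cycling cells each, with exact 95% intervals of 0.0309% to 0.920% and 0.0288% to 0.855%, so their order is not resolved. Healthy animals held 0.134%, 0.185% and 0% (1 of 749, 1 of 541 and 0 of 413, which allows up to 0.726%), also below every untreated animal. These limits are 3 counts of the total, and the exact 95% intervals in the plot of shares by animal reach higher. The FAP-sorted animals held 1.01%, 0.187%, 1.88%, 4.46% and 0.468% (11 of 1092, 2 of 1067, 24 of 1276, 62 of 1389 and 5 of 1069), the widest spread of any condition. A total of 129 of the 172 members (75%) came from 4 animals, and FAP-sorted 4 alone gave 36.0%.

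**Figure D3:**
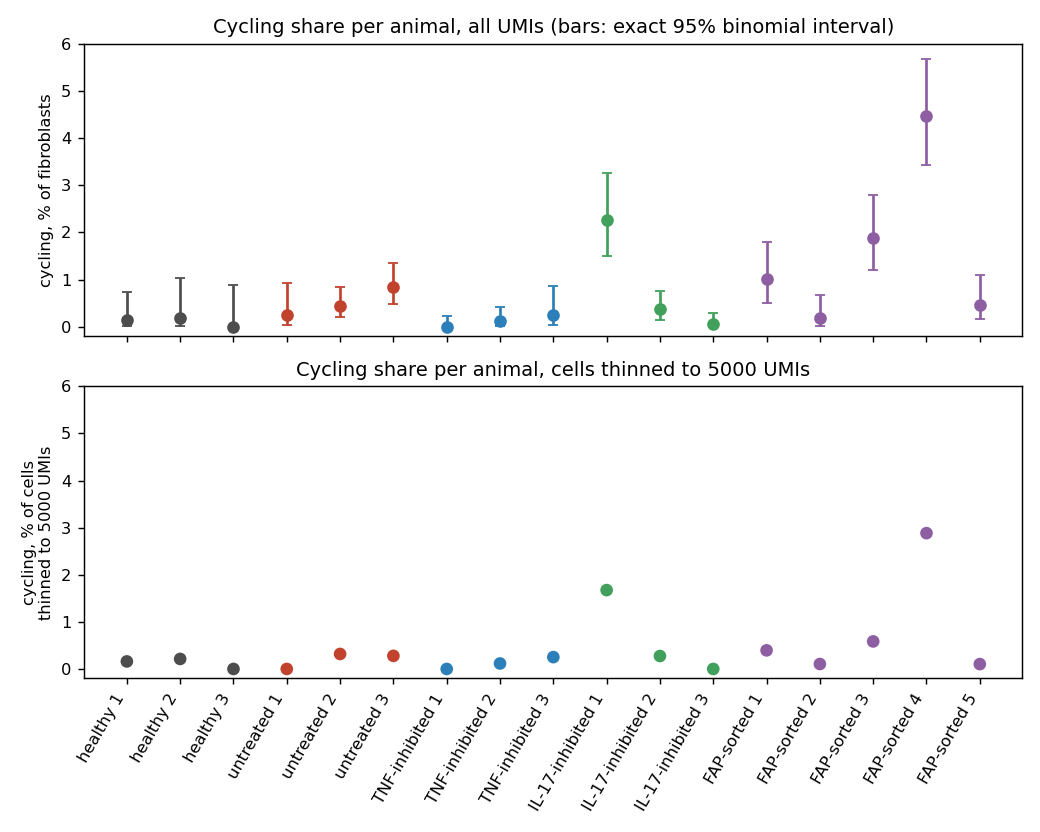
Cycling share of annotated fibroblasts in each animal (y axis, percent) with all UMIs and exact 95% binomial intervals (upper panel) and with every cell thinned to 5000 UMIs (lower panel). IL-17-inhibited 1 (2.25%) and FAP-sorted 4 (4.46%) stand above the other animals of their conditions. Untreated animals lie above all TNF-inhibited and healthy ones in the upper panel and overlap them in the lower.

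At equal depth the order of the conditions was less clear. Thinned shares were 0%, 0.319% and 0.278% in untreated, 0%, 0.116% and 0.252% in TNF-inhibited, 1.67%, 0.275% and 0% in IL-17-inhibited, and 0.160%, 0.213% and 0% in healthy animals. The FAP-sorted animals had 0.395%, 0.105%, 0.585%, 2.88% and 0.103%. Condition means were 0.199% ± 0.173 (SD, n = 3) in untreated, 0.123% ± 0.126 in TNF-inhibited, 0.650% ± 0.898 in IL-17-inhibited, 0.124% ± 0.111 in healthy and 0.814% ± 1.17 (n = 5) in FAP-sorted animals. TNF-inhibited and healthy animals, which lay apart from untreated ones without thinning, overlapped them here.

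None of the 3 comparisons of conditions passed. Healthy minus arthritic within libraries was -0.20 points (exact permutation test over 64 arrangements, two-sided, p = 0.547, adjusted p = 0.614), and it turned to 0.0256 points without healthy 3 and to 0.135 points with only the cells whose own hashtag was the highest. The 3 arthritic groups of the libraries not sorted for FAP differed with F = 0.857 (exact permutation over 1680 assignments, p = 0.614, adjusted p = 0.614). FAP-sorted minus untreated was 0.615 points (exact permutation over 56 splits, p = 0.554, adjusted p = 0.614) and 0.0982 points without FAP-sorted 4. Members per animal were too few for a comparison of the cycling cells' own transcripts between treatments, since only 1 untreated, 1 IL-17-inhibited and 0 TNF-inhibited animals had at least 10.

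Depth moved with membership. The rule asks for UMIs of 2 sparse genes, and most members were of the deep Mmp3+ class, but the part of either in the members' depth was not tested. Members held a median of 31550.5 UMIs and 5145.5 genes, against 14925.5 and 3206 in cells with neither gene, and their totals ran from 3480 to 60127 UMIs. A defining marker of another cell type was read in 55 members (32.0%) and in 28.5% of cells with neither gene. Hyper-loading gives droplets with more than 1 cell, no doublet caller was run here, and the part of doublets in these totals was not tested.

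To set members beside like cells, raw counts of 140 members of the 5 animals with at least 10 were summed per animal, and those of 700 non-cycling cells (0 UMIs of both genes) of the same animal and class, 5 per member and nearest in UMI total, were summed likewise. edgeR's quasi-likelihood test with the animal as a block and Benjamini-Hochberg adjustment tested 8964 genes, of which 1021 were higher (11.4%) and 892 lower (9.95%) in cycling cells at an adjusted p under 0.05. Levels below are CPM (counts scaled to a fixed total after TMM normalisation) as mean ± SD over the 5 animals, and every fold change and adjusted p is from this edgeR test. Without the FAP-sorted library, which leaves 2 of the 5 animals, 373 genes were higher and 225 lower, and without FAP-sorted 4 alone 530 were lower. With only cells of at most 30000 UMIs 613 were higher and 470 lower. The depth match was incomplete in 2 animals. In IL-17-inhibited 1, members had a median of 36836 UMIs against 30459 in the comparison cells, and in FAP-sorted 4 32981 against 30433. The medians were 31853 against 31644 in untreated 3, 26600 against 26686 in FAP-sorted 1 and 29275 against 28107 in FAP-sorted 3. Mki67 was at 193 to 403 CPM and Top2a at 255 to 404 CPM in members, and both were at 0 in the comparison cells by construction.

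Nearly all tested genes of the division lists were higher, and their transcripts move with the 2 selecting genes, so their calls are given as a description beside the 11.4% of all genes. All 38 tested S phase genes, 70 of 71 G2 and mitosis genes and 15 of 16 tested replication histones were higher, with median log2 fold changes of 3.01, 6.67 and 5.06. Ube2c was at 131, 265, 310, 251 and 336 CPM in the members of untreated 3, IL-17-inhibited 1 and FAP-sorted 1, 3 and 4, and at 0 to 1.12 CPM in their comparison cells. Cdk1 was at 79.5, 208, 178, 240 and 257 CPM in the same order against 2.20 to 6.63 CPM, so the groups stood apart in every animal and untreated 3 was the lowest. Hist1h2ae, a histone made for new chromatin, was at 227 ± 106 CPM against 1.83 ± 0.925. Pcna, the sliding clamp of DNA polymerases, differed less, 163 ± 40.9 against 51.9 ± 12.5 CPM. The exceptions were Pttg1, the securin that inhibits separase, at 38.1 ± 4.24 against 40.1 ± 6.62 CPM (log2 fold change -0.09), and Hist1h2bc at 69.0 ± 34.4 against 93.2 ± 26.3 CPM (-0.63). Histone genes are near-identical copies, so their single values are uncertain where reads could be shared.

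The 12 highest genes outside these lists had few or no UMIs in the comparison cells, which were chosen for 0 UMIs of both selecting genes. The values of these 12 are given as a description as well. Esco2, the cohesin acetyltransferase of S phase (chromosome 14), had 220 UMIs in members and 0 in the comparison cells, at least 286-fold higher against a floor of 3 counts over the group. Pclaf, the PCNA-associated factor (chromosome 9, 65890237 to 65903266 on mm10), was at 96.2, 196, 141, 257 and 256 CPM in members and at 0 to 0.871 CPM in comparison cells (log2 fold change 8.54 ± 0.22 SE). Ska1, of the spindle and kinetochore complex, had 162 UMIs against 1, 631 times as many at equal depth (112 to 25086 from counting error alone). Of the same 12, Mxd3 (200 against 2 UMIs), Neil3 (130 against 1), Kif15 (177 against 2), Iqgap3 (189 against 3), Depdc1a (181 against 3), Spag5 (120 against 3) and E2f8 (88 against 2) were as sparse in the comparison cells, with ratios of 156 to 507 whose counting intervals began at 46.1 or above. Knstrn, a spindle-associated protein, and Kifc1, a kinesin motor, completed the 12 highest, at log2 fold changes of 7.01 ± 0.28 and 6.71 ± 0.43.

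Regulators that start or stop the cycle moved in both directions. Of 12 tested G1 cyclins and CDK partners, 6 were higher and 1 lower (median log2 fold change 0.75, against -0.02 over all genes tested), beside 11.4% and 9.95% of all genes. The list includes E2f8 (6.84), 1 of the 12 highest genes above, whose value is a description. Ccnd1, a D-type cyclin, was higher in all 5 animals, at 198, 244, 178, 62.8 and 56.6 CPM against 32.1, 157, 52.2, 42.3 and 41.8 (1.11 ± 0.25 SE, edgeR adjusted p = 0.00576), although the groups overlapped across animals. Ccnd2, its close relative, fell in all 5 without overlap, 38.3 to 73.6 CPM in members and 81.0 to 150 CPM in comparison cells (-1.0 ± 0.17, edgeR adjusted p = 0.000638). Cdk4, the kinase partner of both, was higher by 0.75 ± 0.14 (edgeR adjusted p = 0.00122). Without the FAP-sorted library the calls of Cdk4 (0.45, edgeR adjusted p = 0.361) and Ccnd2 (-1.05, edgeR adjusted p = 0.135) were lost.

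Of 22 CDK inhibitors and genes of cell-cycle exit, 3 were higher and 9 lower (median -0.38). These counts, and those of the next 2 lists, stand beside 11.4% higher and 9.95% lower of all genes. Cdkn2d and Cdkn2c, inhibitors of Cdk4 and Cdk6, were among the inhibitors that were higher. Cdkn2d was at 61.3 to 104 CPM in members against 11.0 to 18.9 CPM (2.50 ± 0.15, edgeR adjusted p = 2.08e-08). Cdkn2c was at 37.0 to 115 CPM against 10.2 to 17.4 CPM (2.43 ± 0.19). Whether the rise of Cdkn2d and Cdkn2c follows from the choice of cells by Mki67 and Top2a was not tested. Cdkn1a and Cdkn1b did not pass, at log2 fold changes of -0.34 and -0.07. Gas6, a ligand named for its rise at growth arrest, fell by 1.64 ± 0.23 on the log2 scale, and Klf4, a factor that restrains the cycle, fell by 0.88 ± 0.11, from 928 to 1470 CPM in comparison cells to 439.7 to 818 CPM in members. Growth factors and their receptors had 0 of 23 higher and 10 lower, among them Igf1 (247 ± 172 against 563 ± 259 CPM, -1.26) and Fgf2 (-1.28). Of 19 genes of the Myc and ribosome biogenesis list, 6 were higher and 3 lower. Ran and Ranbp1, which carry cargo through nuclear pores and also serve the spindle, were higher by 1.13 ± 0.12 and 1.09 ± 0.13, while Myc itself was lower by 0.56 ± 0.18 (edgeR adjusted p = 0.0434).

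Most acute phase and complement genes were lower in cycling cells. Of 16 tested acute phase and complement genes, 0 were higher and 14 lower (median -0.88, against -0.02 over all genes and 9.95% of all genes lower). Saa3, an acute phase protein and the most abundant gene of the list (chromosome 7, 46711998 to 46715700 on mm10), was at 20360, 3271, 17849, 35237 and 29817 CPM in members of untreated 3, IL-17-inhibited 1 and FAP-sorted 1, 3 and 4. In their comparison cells it was at 54713, 19630, 91143, 85987 and 63061 CPM. Every animal was lower in cycling cells (-1.74 ± 0.18, edgeR adjusted p = 8.41e-06), and the ranges overlapped only through the low level of IL-17-inhibited 1. C3, the central complement protein, was at 3050 ± 857 against 5522 ± 514 CPM without overlap (-0.89 ± 0.13). Saa1 and Saa2, near-identical copies whose reads may be shared, were lower by 1.56 ± 0.20 and 2.22 ± 0.32. In the list as a whole, 4.21%, 1.56%, 3.16%, 5.55% and 4.94% of members' TMM-scaled UMIs fell on its genes, against 8.23%, 4.21%, 13.4%, 12.1% and 9.32%.

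Cytokines and chemokines had 1 of 24 higher and 10 lower (median -0.58), beside 11.4% higher and 9.95% lower of all genes. Cxcl14 (chromosome 13), a chemokine of stromal cells, was at 440, 213, 809, 1660 and 3026 CPM in members against 2661, 1195, 4275, 4588 and 4104 CPM (-1.87 ± 0.25, edgeR adjusted p = 0.000103). Cxcl12, which retains leukocytes in tissue, fell without overlap from 2149 ± 340 to 1006 ± 303 CPM (-1.13 ± 0.13), and Il6 likewise from 809 ± 285 to 390 ± 153 CPM (-1.07 ± 0.15). Tnfsf11, the osteoclast factor RANKL, was lower by 1.31 ± 0.27, and Csf1, the macrophage growth factor, was higher by 0.51 ± 0.15 in 4 of 5 animals. Of 16 genes of NF-kB feedback 8 were lower and 0 higher, led by Tnfaip3 at 128 ± 29.9 against 210 ± 32.4 CPM (-0.73 ± 0.11). Of 19 interferon response genes 0 were lower and 3 were higher (15.8%, near the 11.4% of all genes). These were Ifi27l2a, Isg15 and Gbp7, each higher in 4 of 5 animals, the Isg15 call was lost without FAP-sorted 4 (edgeR adjusted p = 0.0608), and Gbp7 turned to -0.13 without the cells that held a defining marker of another cell type.

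**Figure D4:**
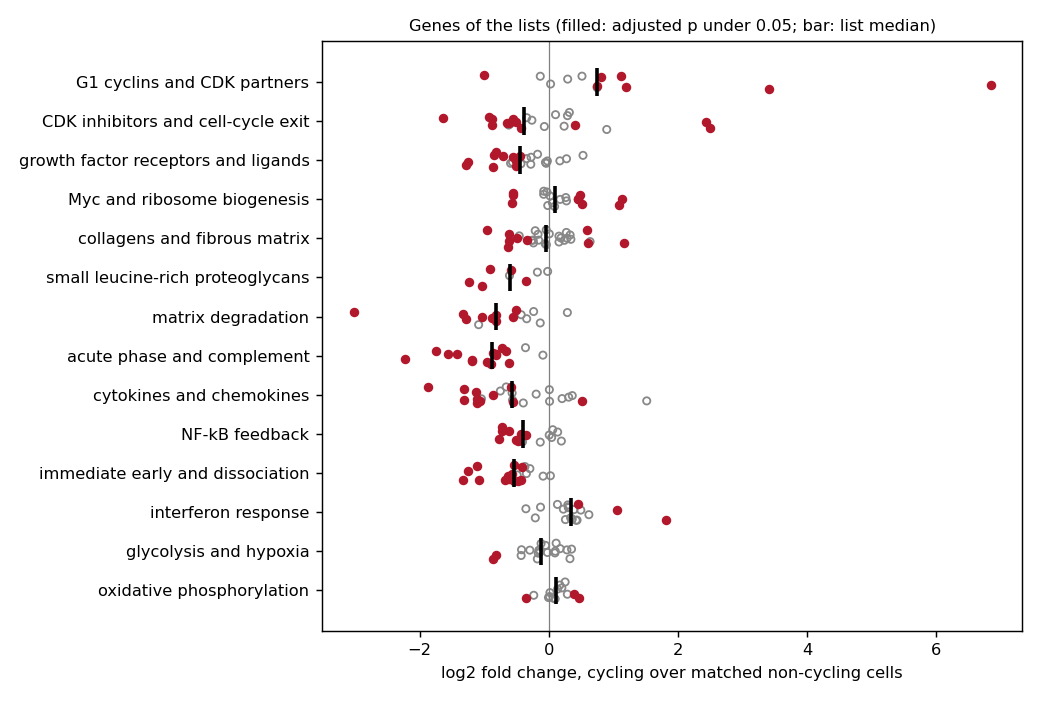
Log2 fold change of cycling over matched non-cycling cells (x axis) for the tested genes of 14 lists outside the division lists, 1 point per gene, filled where the edgeR adjusted p was under 0.05, with the list median as a bar. The medians of the acute phase and complement, matrix degradation, and immediate early lists lie to the left of 0, and E2f8 is the point at 6.84 among the G1 genes.

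Matrix-degrading enzymes followed the same direction, with 0 of 15 higher and 9 lower (median -0.82), beside 11.4% and 9.95% of all genes. Mmp3 (chromosome 9, 7445822 to 7455975 on mm10), the gene that names the class of most members, was at 8432, 3529, 4920, 9228 and 8408 CPM in members against 20724, 8632, 22426, 14865 and 16159 CPM. It was lower in all 5 animals (-1.28 ± 0.16, edgeR adjusted p = 4.86e-05), while members remained annotated as Mmp3+. Mmp2, a gelatinase, was at 659 ± 338 against 1554 ± 492 CPM (-1.33 ± 0.15), and Mmp12, an elastase also made by macrophages, fell from 43.9 ± 48.3 to 2.71 ± 2.68 CPM (-3.02 ± 0.49). The cathepsins Ctsk and Ctsl were lower by 0.82 ± 0.13 and 0.87 ± 0.13 without overlap.

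Structural matrix genes moved in both directions or did not pass. Of 29 collagens and fibrous matrix genes 3 were higher and 6 lower (median -0.04), beside 11.4% higher and 9.95% lower of all genes. Col1a1, the main fibrillar collagen, was at 2839, 2977, 6802, 11521 and 10123 CPM against 3925, 2442, 7856, 8917 and 11426 CPM (-0.04 ± 0.12, edgeR adjusted p = 0.860), higher in 2 animals and lower in 3. Of 8 small leucine-rich proteoglycans, which bind collagen fibrils, 5 were lower and 0 higher, among them Dcn at 6544 ± 847 against 9856 ± 1316 CPM (-0.59 ± 0.10) and Lum at 1422 ± 788 against 2685 ± 823 CPM (-1.03 ± 0.16). Lox and Loxl2, enzymes that crosslink collagen, moved in opposite directions, at -0.61 ± 0.13 and 0.61 ± 0.13.

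**Figure D5:**
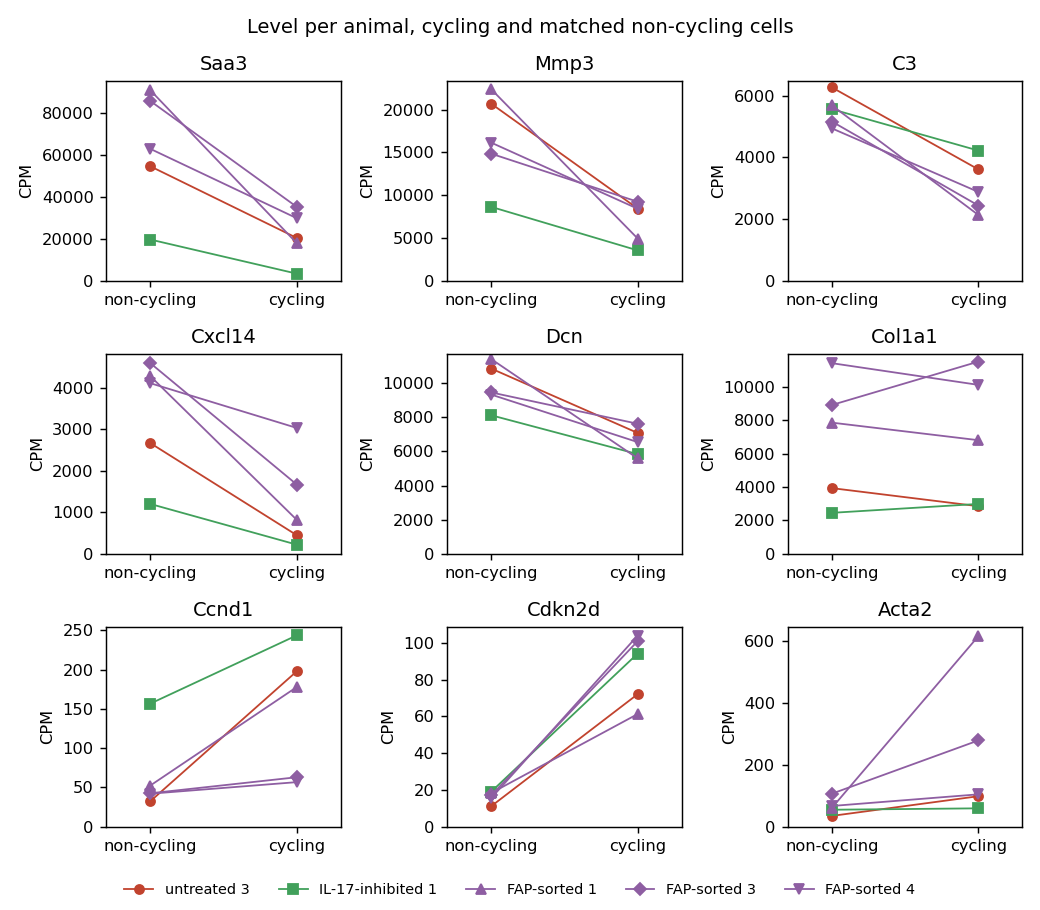
Level of 9 genes (y axis, CPM from 0) in non-cycling and cycling cells of the 5 animals, 1 line per animal. Saa3, Mmp3, C3, Cxcl14 and Dcn go down in every animal, Ccnd1, Cdkn2d and Acta2 go up in every animal, and the lines of Col1a1 cross.

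All 10 fibroblast identity genes were read in members, but their summed level was lower in 4 of 5 animals, 14552 to 33800 CPM (median 21445) against 16818 to 36761 CPM (median 31818). Of these genes 3 were lower (Dcn, Lum and Pdpn) and 0 higher, beside 9.95% of all genes lower. Pdgfra, a receptor that marks fibroblasts, was at 175 ± 18.4 against 210 ± 9.68 CPM and did not pass (-0.28 ± 0.10, edgeR adjusted p = 0.0727). Of 8 tested lining identity genes 2 were higher and 2 lower, with Htra4, a serine protease, the furthest at -2.27 ± 0.26. Of 12 genes of the Pi16 and adventitial list 2 were higher and 3 lower, among them Igfbp5, an insulin-like growth factor binding protein, at 562 ± 88.2 against 1348 ± 423 CPM (-1.22 ± 0.13). Of 11 Wnt and Notch genes 1 was higher, the receptor Notch1 (1.35 ± 0.32), and 3 were lower, beside 11.4% and 9.95% of all genes. The Notch1 call was lost without the FAP-sorted library (1.40, edgeR adjusted p = 0.109).

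Acta2 and Tpm2, which build the contractile apparatus, were the 2 of 10 contractile genes that were higher, and 0 were lower, beside 11.4% and 9.95% of all genes. Acta2 was at 98.0, 58.8, 616, 279 and 104 CPM in members against 34.3, 54.3, 60.5, 106 and 66.4 CPM (1.36 ± 0.32, edgeR adjusted p = 0.0071), with FAP-sorted 1 far above the rest. Tpm2 was at 182 ± 78.3 against 76.4 ± 19.7 CPM (1.14 ± 0.22), and 0.78 without cells rich in muscle or bone transcripts. Without the FAP-sorted library the calls of Acta2 (0.73, edgeR adjusted p = 0.297) and Tpm2 (1.49, edgeR adjusted p = 0.0903) were lost. The mural list of 7 markers summed to 36.1 to 183 CPM in members and 30.6 to 81.4 CPM in comparison cells and was higher in 4 of 5 animals, with Des higher (1.63 ± 0.45, edgeR adjusted p = 0.0198, and 0.0711 without FAP-sorted 1), Rgs5 at -0.86 ± 0.32 (not passed) and Myh11 at 0 in members. The part of mural cells in these changes was not tested.

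Heat-shock and immediate early genes, which rise when tissue is dissociated, were lower, 13 of 19 tested and 0 higher (median -0.54), beside 9.95% of all genes lower. Dnajb1, a heat-shock co-chaperone, was at 126, 133, 107, 242 and 332 CPM against 386, 309, 421, 623 and 545 CPM (-1.33 ± 0.16, edgeR adjusted p = 2.53e-05). Fos was at 1478 ± 123 against 1597 ± 350 CPM (-0.09). The deposited stress score was a median of 0.204 in members and 0.622 in cells with neither gene, and the deposited mitochondrial share of UMIs was 2.76% against 2.31%. Several inflammatory genes above are also induced on dissociation, and the part of the stress response in their values was not tested. Of 20 glycolysis and hypoxia genes 0 were higher and 2 lower (Slc2a1 and Hk2), and of 14 oxidative phosphorylation genes 2 were higher and 1 lower, beside 11.4% higher and 9.95% lower of all genes.

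The 12 lowest genes outside the division lists fell by 1.88 to 3.24 on the log2 scale. Mt3, a metallothionein, was at 11.1, 1.87, 12.3, 4.10 and 0 CPM in members against 75.7, 35.1, 80.4, 17.9 and 12.4 CPM (-3.24 ± 0.34, edgeR adjusted p = 6.95e-06), each animal lower. Mmp12, Ctla2a (-2.91), the formyl peptide receptor Fpr2 (-2.64), Trf (-2.48), which encodes transferrin, and Chil1 (-2.30) came next, followed by Htra4, Saa2, the haem binder Hpx (-2.14), the phagocyte oxidase subunit Cybb (-2.08), the histone demethylase Kdm7a (-2.02) and the haem oxygenase Hmox1 (-1.88). Kdm7a fell without overlap, from 97.1 ± 30.0 to 23.8 ± 8.40 CPM. Without the FAP-sorted library the calls of Trf (-2.09, edgeR adjusted p = 0.134) and Chil1 (-2.06, edgeR adjusted p = 0.216) were lost. Fpr2, Cybb and Mmp12 are also expressed by myeloid cells. The 12 leukocyte markers summed to 6.53 to 57.4 CPM in members and 18.9 to 88.7 CPM in comparison cells and were lower in 4 of 5 animals, 6 of them were at 0 in members (Ptprc, C1qa, C1qb, Adgre1, Cd3e and Cd79a), and Lyz2 was lower in 4 of them (-1.45 ± 0.36, edgeR adjusted p = 0.0107). The Lyz2 call was lost under 7 alternatives, with an edgeR adjusted p of 0.167 with no replicate block and 0.0813 without FAP-sorted 4. The part of myeloid transcripts in these values was not tested.

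Markers of muscle and bone were carried by a few members. At least 100 UMIs of the muscle list or of Ibsp, a bone matrix gene, were read in 6 of 172 members (3.49%) and in 77 of 21559 other fibroblasts (0.357%). In untreated 3, 1 Mmp3+ member held 1346 UMIs of the muscle list and another 1255 UMIs of Ibsp, which put the muscle list at 2534 CPM in that animal's members, against 0 to 32.7 CPM in those of the other 4. In FAP-sorted 3, a member held 1221 UMIs of Ibsp. Comp, a cartilage matrix gene, was lower in members (-1.40 ± 0.22). Without all such cells 974 genes were higher and 880 lower. The neutrophil markers summed to 12.9 to 150 CPM in members and 29.4 to 163 CPM in comparison cells, and 0 of the 3 tested passed. Endothelial, erythroid, keratinocyte and Schwann markers summed to at most 51.3 CPM in any animal's members.

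Within the Mmp3+ class alone, the only class with enough members, 8838 genes were tested over the same 5 animals, and 1009 were higher (11.4%) and 798 lower (9.03%). Acute phase and complement genes were again 14 of 16 lower (median -0.93), matrix-degrading enzymes 9 of 15 and immediate early genes 14 of 19. Saa3 was at 21408 ± 11359 CPM in Mmp3+ members against 65865 ± 28070 CPM (-1.77 ± 0.17, edgeR adjusted p = 2.68e-06), and Mmp3 at 6849 ± 2440 against 17445 ± 5202 CPM (-1.37 ± 0.16, edgeR adjusted p = 1.93e-05). The lowest genes were Fpr2 (-3.55), Mmp12 (-3.10), Ctla2a (-2.90), Mt3 (-2.84) and Cybb (-2.55), and the highest were Esco2, Neil3, Pclaf, Ska1 and Mxd3. These members are 119 of the 140 in the fit over all classes, so the 2 fits are not independent.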

How the data were processed

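Single-cell transcript 3' ends were read in 4 droplet libraries of hashtagged synovial cells. The deposited matrices hold raw UMI counts per gene and cell, made with Cell Ranger 6.0.0 (3 libraries) or 5.0.0 (FAP-sorted library) per the file headers; the submitters' processing notes name 6.0.6 and mm10. The authors' deposited metadata gave each cell's animal, class, cell-cycle and stress scores, and mitochondrial fraction (printed here as percent). No source used here states the filters, hashtag calling or scoring behind them. The members and gene lists were chosen with earlier results of these data known.

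Counts were summed per animal and state for the 5 animals with at least 10 cycling cells, with 5 non-cycling cells of the same animal and class, nearest in UMI total, per cycling cell. edgeR 4.0.16 in R 4.3.3 (filterByExpr, TMM, quasi-likelihood test, animal as block, Benjamini-Hochberg 0.05) was the test, and DESeq2 1.42.0 an alternative. Pairs come from the same animal. Mki67 and Top2a were not tested. Shares were compared between animals by exact permutation tests after thinning to 5000 UMIs. Outside the division lists, the text names the 12 highest and 12 lowest called genes with the same sign in every animal and at least 20 CPM in the higher state, up to 4 called genes of each list with the lowest p, and 5 and 5 in the Mmp3+ fit; other list members are given with their values, and 1 gene of the rule is not reported here. On simulated data (8966 genes, 200 changed), 63% of changes of 1 and 89% of changes of 2 on the log2 scale were recovered, with 8 false calls. Those counts were drawn from a single mean per gene at a fixed dispersion of 0.05, without differences between animals. The rates hold for that setting only and are not rates for the measured data. Intervals and floors (3 counts) cover counting error only. Lists found 551 of 559 symbols. No doublet caller was run, and barcodes outside the annotation were only counted.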

Additional observations from a re-analysis of the deposited data

Results flagged for a closer look

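FAP-sorted 4 stood apart from the other 4 animals of its condition. Its thinned cycling share was 2.88%, against 0.103% to 0.585% in the others, and its Il6+ cells held a cycling share of 3.61% (6 of 166), the highest of that class. For single genes, log2 ratios of cycling to non-cycling CPM were taken with 1 CPM added to both levels. Esco2 had such a ratio of 4.65 in untreated 3, below the 5.55 to 5.71 of the other 4 animals. It was at 0 CPM in the comparison cells of all 5 animals, so its ratio holds the members' level only. Kifc1 had a log2 ratio, with the same addition, of 2.79 in FAP-sorted 3, below the 4.48 to 4.97 of the others. Each of these 4 values was separated from its group by a gap larger than Dixon's 95% critical value, among 28 groups examined, and chance alone passes about 1 in 20.

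Outside the deposited annotation, 268 of 23431 barcodes (1.14%) held at least 1 UMI of both Mki67 and Top2a, and 21 of them held a UMI of the leukocyte gene Ptprc. Their cell types were not analysed here.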

How the results depend on the processing

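Healthy minus arthritic (-0.20 points) turned to 0.514 with equal class weights, to 0.135 with own-hashtag cells only, and ranged from -0.344 to 0.0256 leaving out 1 animal at a time (0.0256 without healthy 3). Healthy animals held only 16, 17 and 24 Mmp3+ cells, 2.14%, 3.14% and 5.81% of their fibroblasts. The share was 31.9% to 55.8% in arthritic animals of the libraries not sorted for FAP. With equal class weights, 1 cycling cell among 12 thinned Mmp3+ cells of healthy 2 (8.33%) thus weighed heavily. Lining minus Pi16+ (-0.348) was 0.289 thinned to 3000 UMIs, 0.585 to 8000 and 0.518 unthinned. Il6+ minus Pi16+ (-0.747) was 0.0322 at 3000 and 0.0555 at 8000, and -1.04 to 0.0455 leaving out 1 animal (0.0455 without IL-17-inhibited 1). Lining minus Il6+ (0.126) was -0.166 with FAP-sorted animals and -0.0747 to 0.186 leaving out 1 animal. With FAP-sorted animals, Lining minus Mmp3+ (-0.596) and Mmp3+ minus Cd200+ (0.720) passed. The causes were not tested.

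Over all classes, 1021 higher and 892 lower genes became 710 and 304 with no replicate block, 373 and 225 without the FAP-sorted library, 613 and 470 with at most 30000 UMIs, and 707 to 980 and 530 to 831 leaving out 1 animal (530 without FAP-sorted 4). For Mmp3+ cells, 1009 and 798 became 712 and 299 with no replicate block, 419 and 279 without the FAP-sorted library, 367 and 253 with at most 30000 UMIs, and 690 to 957 and 507 to 781 leaving out 1 animal (507 without FAP-sorted 4). Mmp3+ lower genes numbered 1201 with no filter on low counts and 480 with at least 2 UMIs of each selecting gene. Of 2025 values of named genes under alternatives, 1850 kept direction and side of the threshold, 174 lost the threshold and 1 reversed (Gbp7, -0.13 without cells with a defining marker of another type). Of the 174, 43 were with no replicate block and 31 without the FAP-sorted library. The latter included Tnfaip3 (edgeR adjusted p = 0.0574), Ranbp1 (0.0533), Pdpn (0.0784) and Loxl2 (0.0638). With at most 30000 UMIs, which leaves FAP-sorted 3 and 4, lost calls included Dcn (edgeR adjusted p = 0.203), Pdpn (0.507), Fgf2 (0.178) and Slc2a1 (0.532). DESeq2 kept the 4 counts over all genes tested within 1.5 times, but of small lists moved lining genes lower from 2 to 1, Pi16 list genes higher from 2 to 1, oxidative phosphorylation genes higher from 2 to 1, and neutrophil genes lower from 0 to 1. Alternatives added after seeing the data were the limit of 30000 UMIs, TMM without the division lists, cells rich in muscle or bone transcripts left out and, for shares, cells with another type's defining marker left out. Fits of treatment within cycling cells were not run, for want of animals with 10 members.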
